A study of Mus musculus with 9 samples.

Results

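The genes described are 10 antioxidant enzymes and selenoproteins of the mouse: Cat, Sod1, Sod2, Sod3, Gpx1, Gpx3, Prdx3, Selenop, Selenow and Pon2. They were picked by symbol through their Entrez gene numbers, out of 17963 genes in the deposited table. The choice was made with earlier results of these data known. All 10 were found and passed the filter on low counts. RNA came from kidney cortex of wild-type mice on day 4, in 3 groups of 3 libraries each. The YSJZD group had cisplatin injected into the peritoneum and Yishen Jiangzhuo decoction, a herbal medicine, given into the stomach. The cisplatin group had the same injection, of a platinum drug that injures the kidney tubule, with water into the stomach. The control group had saline into the peritoneum and water into the stomach. The sources used here give no strain, sex, age or dose. They do not say that each library came from its own mouse, so p-values here cover only the spread among these libraries, which may be technical.

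Superoxide, a by-product of respiration and of oxidase enzymes, is turned into hydrogen peroxide by superoxide dismutases. Catalase then removes the peroxide inside peroxisomes, peroxiredoxins remove it with electrons from thioredoxin, and glutathione peroxidases remove it with electrons from glutathione. Selenoproteins carry selenium as selenocysteine, an amino acid that the ribosome inserts at a TGA codon that would otherwise stop translation. The proximal tubule, which is rich in mitochondria and peroxisomes, is the main kidney source of secreted glutathione peroxidase, and it takes up selenoprotein P from the filtrate through the receptor megalin.

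The coding sequences of the main transcripts (GENCODE M21 on GRCm38, matched by RefSeq accession) separate the 4 selenoproteins from the other 6 genes. Gpx1, Gpx3 and Selenow each hold 1 TGA codon in frame before the stop codon, and Selenop holds 10. Cat, Sod1, Sod2, Sod3, Prdx3 and Pon2 hold 0. Since these codons are what sets the selenoproteins apart, 5 of them are printed with 15 bases on either side, 5′ to 3′ along the coding strand, with the TGA in capitals. Codons are counted from 1 at the start codon.
Gpx1, codon 47: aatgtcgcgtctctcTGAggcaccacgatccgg
Gpx3, codon 73: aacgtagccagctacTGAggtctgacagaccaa
Selenow, codon 13: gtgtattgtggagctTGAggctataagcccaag
Selenop, codon 59: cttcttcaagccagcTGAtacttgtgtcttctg
Selenop, codon 330: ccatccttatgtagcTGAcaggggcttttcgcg
In Selenop, 1 of the 10 codons lies at position 59 and the other 9 lie between positions 259 and 377 of 380 codons. Selenow is the shortest coding sequence of the 10, with 88 codons. Of these 4 genes, Selenop fell, Selenow rose and Gpx1 and Gpx3 were not called with cisplatin.

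Library totals lay between 15029286 and 16690482 expected counts, and 13954 genes were tested. At an adjusted p under 0.05 the fit called 54.6% of them in cisplatin against control, 35.4% between YSJZD and cisplatin, and 19.3% for YSJZD against control. Levels across libraries are given in CPM, counts scaled to a common library size with TMM factors, which adjust for differences in RNA composition. Scaling by library totals alone in place of TMM factors moved the median log2 fold change of all genes from 0.04 to 0.27 in cisplatin against control and from 0.01 to 0.20 in YSJZD against control. The share of called genes that were higher then moved from 52.4% to 66.1% and from 51.4% to 75.4%. Markers of the proximal tubule were present in every library, with a summed level of 20431 to 41224 CPM with YSJZD, 5902 to 8299 CPM with cisplatin alone and 78013 to 99379 CPM in control libraries (18 genes).

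Levels of different genes were compared per transcript length, in FPKM. Gpx3 stood far above the other 9 genes, at 25917 ± 2366 FPKM (SD, n = 3) in YSJZD libraries, 21524 ± 1745 FPKM in cisplatin libraries and 18108 ± 4994 FPKM in control libraries. It ranked first or second among all 17963 genes in each of the 9 libraries and held 1.83% to 3.89% of all expected counts. Pon2 was the lowest of the 10 in each library, at 20.7 ± 2.77 FPKM in YSJZD, 41.0 ± 3.42 FPKM in cisplatin and 14.4 ± 0.334 FPKM in control libraries.

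**Figure D1:**
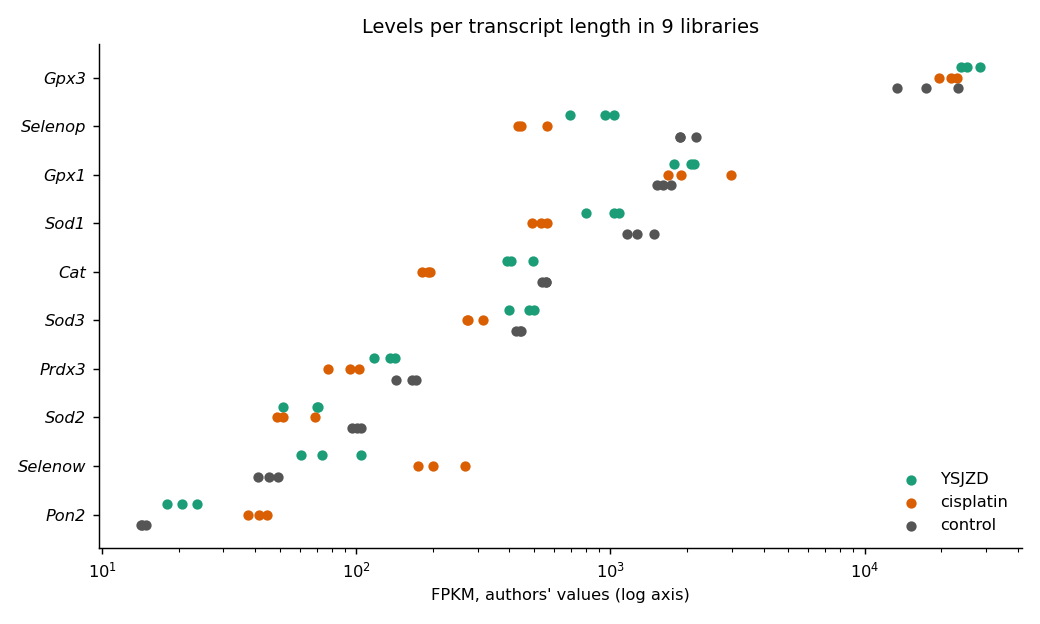
FPKM of the 10 genes (log axis) in 9 libraries, 3 points per group, with genes ordered by their control mean. Gpx3 lies between 13458 and 28558 FPKM in all groups, Selenop drops from the second to the fourth place by group mean outside control, and Selenow stands at 175 to 267 FPKM in cisplatin libraries against 41.1 to 49.4 FPKM in control libraries.

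In control libraries the order was Gpx3, Selenop, Gpx1, Sod1, Cat, Sod3, Prdx3, Sod2, Selenow and Pon2, and no neighbours in it overlapped. In cisplatin libraries Gpx1 was second, Sod1 (493 to 562 FPKM) overlapped with Selenop (432 to 564 FPKM), and Selenow (175 to 267 FPKM) overlapped with Cat (181 to 195 FPKM). In YSJZD libraries 3 pairs of neighbours overlapped, namely Sod1 with Selenop, Sod3 with Cat, and Selenow with Sod2. Among the superoxide dismutases, Sod1 made up 60.1% to 69.7% of the summed FPKM in YSJZD libraries, 59.2% to 62.1% with cisplatin alone and 69.1% to 73.2% in control libraries. Sod2 held 3.88% to 4.55% in YSJZD, 5.71% to 7.62% in cisplatin and 5.13% to 5.69% in control libraries. The groups did not overlap in the Sod2 share, although cisplatin (from 5.71%) and control (up to 5.69%) nearly met. In the Sod1 share the YSJZD libraries overlapped with both other groups. These shares do not depend on how libraries are scaled.

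Cisplatin against control tests the effect of the drug by day 4. Of the 10 genes, 6 fell (Cat, Sod1, Sod2, Sod3, Prdx3 and Selenop), 2 rose (Selenow and Pon2), and Gpx1 and Gpx3 were not called. Over all tested genes 26% were called lower and 28.6% higher. The median log2 fold change of the 10 was -0.94, against 0.04 over all tested genes. Because the 10 were chosen with earlier results of these data known, such comparisons with all genes, here and below, describe the set. They do not test it. The groups' CPM values did not overlap for 8 of the 10 genes, against 63.4% of all tested genes. All 8 calls held under each of the 16 alternatives, including each library left out.

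YSJZD against cisplatin tests what the decoction changed in mice given the drug. Of the 10 genes, 5 were higher with YSJZD (Cat, Sod1, Sod3, Prdx3 and Selenop), 2 were lower (Selenow and Pon2) and 3 were not called (Sod2, Gpx1 and Gpx3). Over all tested genes 17.4% were called higher and 18% lower. The median log2 fold change of the 10 was 0.44, against -0.01 over all tested genes, and CPM values did not overlap for 8 of the 10, against 47.3% of all tested genes. All calls held under the 16 alternatives except that of Prdx3, which was lost without YSJZD replicate 2 (adjusted p = 0.0531). This comparison and the one of cisplatin with control share the cisplatin libraries, so opposite signs in them are not independent of each other.

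YSJZD against control tests what still differed from control mice. Of the 10 genes, 5 were lower with YSJZD (Cat, Sod1, Sod2, Prdx3 and Selenop), 0 were higher and 5 were not called. Over all tested genes 9.37% were called lower and 9.93% higher. The median log2 fold change of the 10 was -0.30, against 0.01 over all tested genes, and CPM values did not overlap for 7 of the 10, against 40.4% of all tested genes. Selenop was the only one of the 5 whose call held under all 16 alternatives. With library totals as the scale the lower genes were Sod2 and Selenop, while Pon2 and Selenow were called higher. Leaving out YSJZD replicate 1 or control replicate 1 left 1 gene lower, leaving out YSJZD replicate 3 or control replicate 2 left 2, and leaving out YSJZD replicate 2 or cisplatin replicate 2 added Selenow as higher.

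**Figure D2:**
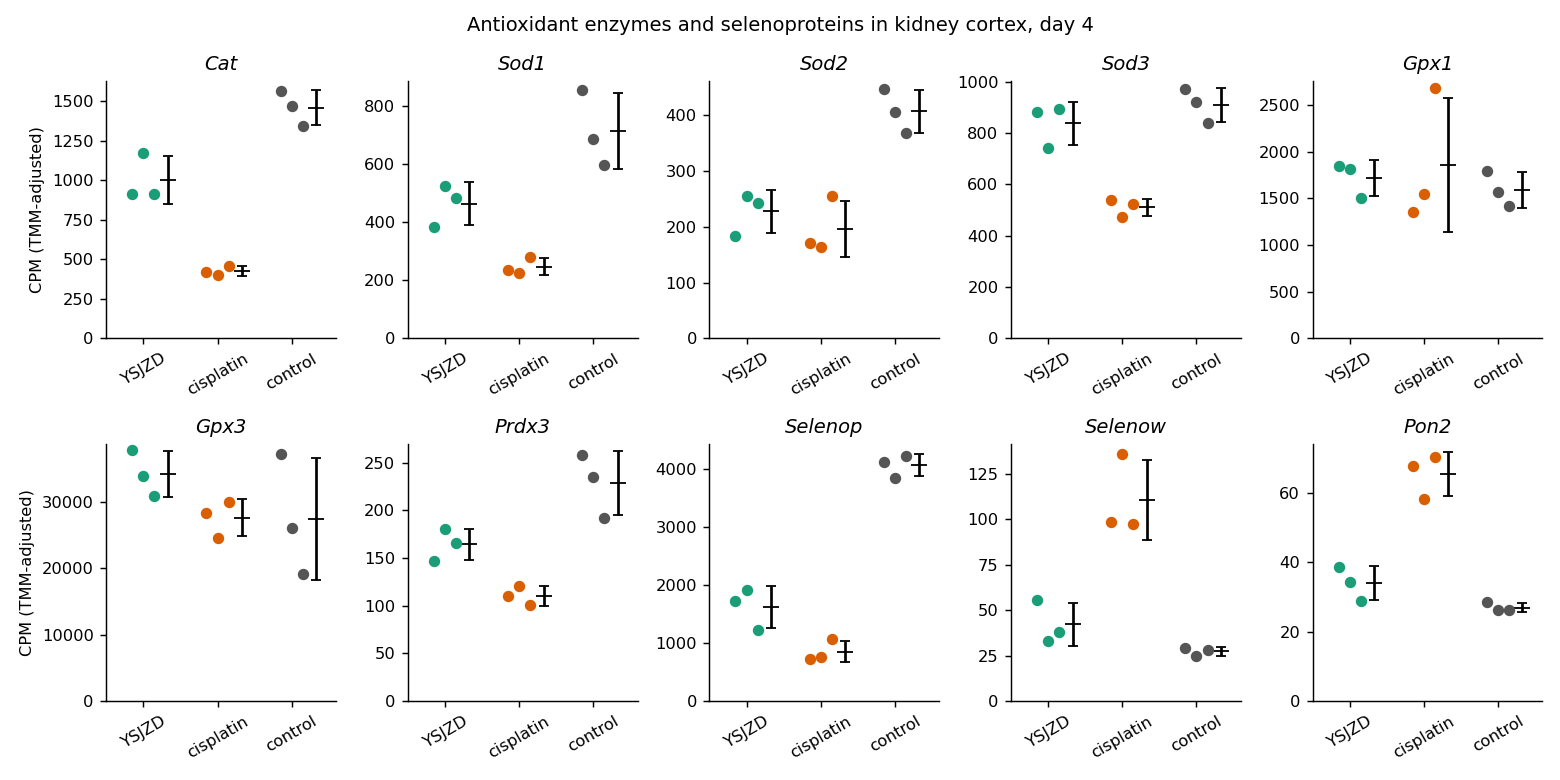
CPM of each of the 10 genes in 9 libraries (linear axis from 0, 1 panel per gene), with mean and SD beside the 3 points of each group. In Cat, Sod1, Sod3, Prdx3 and Selenop the cisplatin libraries lie below all others, in Selenow and Pon2 they lie above all others, and in Gpx1 a single cisplatin library reaches 2678 CPM.

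Catalase, the peroxisomal enzyme that splits hydrogen peroxide, stood at 915, 1174 and 915 CPM in YSJZD libraries, 422, 398 and 459 CPM in cisplatin libraries, and 1560, 1470 and 1341 CPM in control libraries. No groups overlapped, and the YSJZD libraries lay between the others. The log2 fold change of Cat was -1.77 ± 0.16 (SE, adjusted p = 1.18e-05) for cisplatin against control, 1.23 ± 0.15 (adjusted p = 0.000371) for YSJZD against cisplatin and -0.54 ± 0.15 (adjusted p = 0.0323) for YSJZD against control. The last call was lost in 6 of the 16 alternatives, among them those without YSJZD replicate 1 (0.0908) or 3 (0.114) or control replicate 1 (0.0947) or 2 (0.096). Red blood cells also make catalase, and the 8 erythroid markers in the table summed to 1.84 to 2.43 CPM with YSJZD, 1.2 to 1.57 CPM with cisplatin alone and 265 to 606 CPM in control. Hba-a2 and Hbb-bt, which encode haemoglobin chains, had 0 counts in both the YSJZD and the cisplatin libraries. Their part in the Cat result was not tested.

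The dismutases differ by place. Sod1, the copper and zinc enzyme of the cytosol, stood at 383, 525 and 482 CPM in YSJZD libraries, 235, 226 and 280.1 CPM in cisplatin libraries, and 853, 687 and 595 CPM in control libraries. No groups overlapped. Its log2 fold change was -1.53 ± 0.18 for cisplatin against control (adjusted p = 7.69e-05), 0.91 ± 0.18 for YSJZD against cisplatin (adjusted p = 0.00406) and -0.62 ± 0.18 for YSJZD against control (adjusted p = 0.0371). The last call was lost in 6 of the 16 alternatives, among them those without YSJZD replicate 1 (0.111) or 3 (0.0825) or control replicate 1 (0.13) or 2 (0.0868).

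Sod2, the manganese enzyme of the mitochondrial matrix, stood at 184, 255 and 243 CPM in YSJZD libraries, 170.1, 163 and 254 CPM in cisplatin libraries, and 446, 406 and 368 CPM in control libraries. The YSJZD and cisplatin libraries overlapped, and all 6 lay below the control libraries. The log2 fold change of Sod2 was -1.05 ± 0.20 for cisplatin against control (adjusted p = 0.00132) and -0.84 ± 0.20 for YSJZD against control (adjusted p = 0.0156). For YSJZD against cisplatin it was 0.22 ± 0.20 (adjusted p = 0.426), with a 95% interval of -0.23 to 0.66. The call against control with YSJZD was lost without YSJZD replicate 1 (0.0551) or control replicate 1 (0.0611).

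Sod3, the secreted copper and zinc enzyme, stood at 882, 743 and 893 CPM in YSJZD libraries, 538, 472 and 522 CPM in cisplatin libraries, and 971, 922 and 840.1 CPM in control libraries. The cisplatin libraries lay below both other groups, which overlapped. Its log2 fold change was -0.84 ± 0.14 for cisplatin against control (adjusted p = 0.000589) and 0.72 ± 0.14 for YSJZD against cisplatin (adjusted p = 0.00348). For YSJZD against control it was -0.12 ± 0.14 (adjusted p = 0.594), with a 95% interval of -0.43 to 0.19.

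Prdx3, the peroxiredoxin of mitochondria, stood at 147, 180.0 and 166 CPM in YSJZD libraries, 110.4, 121 and 100.2 CPM in cisplatin libraries, and 258, 234 and 192 CPM in control libraries. No groups overlapped, and the YSJZD libraries lay in between. Its log2 fold change was -1.05 ± 0.15 for cisplatin against control (adjusted p = 0.000238), 0.57 ± 0.15 for YSJZD against cisplatin (adjusted p = 0.0143) and -0.47 ± 0.15 for YSJZD against control (adjusted p = 0.0497). The last of these lies at the threshold and was lost in 11 of the 16 alternatives. Among them were the fits without YSJZD replicate 1 (0.132), 2 (0.0611) or 3 (0.117). Others were those without cisplatin replicate 1 (0.0648) or 2 (0.0604) or control replicate 1 (0.163) or 2 (0.136).

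**Figure D3:**
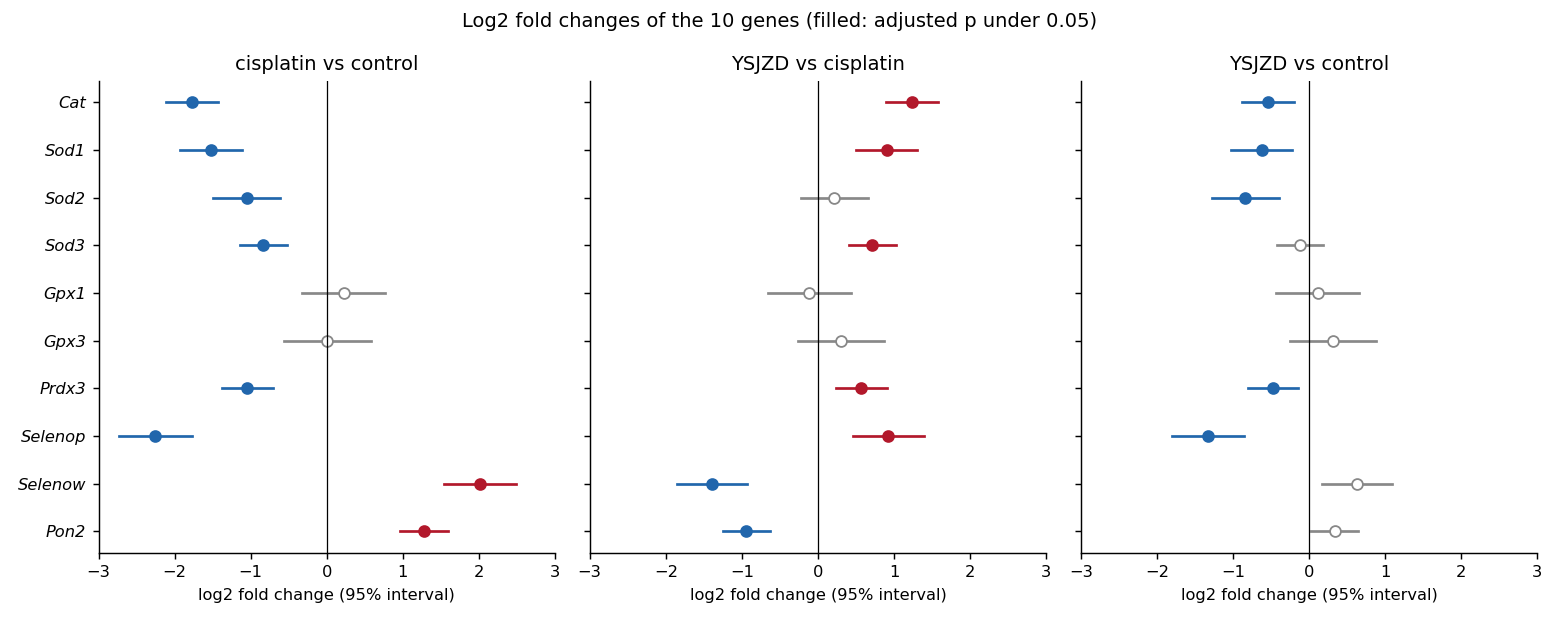
Log2 fold changes of the 10 genes with 95% intervals (horizontal axis) in the 3 comparisons, red for higher, blue for lower and open grey for genes that were not called. The intervals of Gpx1 and Gpx3 cover 0 in all 3 panels, while those of Selenop and Selenow lie farthest from 0 with cisplatin, at -2.25 and 2.02.

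Of the 10 genes, Selenop, the secreted carrier of selenium, had the lowest log2 fold change with cisplatin. It stood at 1733, 1910 and 1224 CPM in YSJZD libraries, 731, 763 and 1065 CPM in cisplatin libraries, and 4115, 3853 and 4228 CPM in control libraries. No groups overlapped, and all YSJZD libraries lay nearer to the cisplatin libraries than to the control libraries. The Selenop log2 fold change was -2.25 ± 0.22 for cisplatin against control (adjusted p = 2.08e-05), 0.93 ± 0.21 for YSJZD against cisplatin (adjusted p = 0.00744) and -1.33 ± 0.21 for YSJZD against control (adjusted p = 0.00242). Of its 3 transcripts in the table, the main transcript held 98.3% to 99.6% of the gene's counts in every library.

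Selenow, a small selenoprotein with a fold like that of thioredoxin, had the highest log2 fold change of the 10 genes with cisplatin. It stood at 55.6, 32.9 and 38.2 CPM in YSJZD libraries, 98.8, 136 and 97.3 CPM in cisplatin libraries, and 29.0, 24.8 and 28.2 CPM in control libraries. No groups overlapped. Its log2 fold change was 2.02 ± 0.21 for cisplatin against control (adjusted p = 3.53e-05) and -1.39 ± 0.21 for YSJZD against cisplatin (adjusted p = 0.00094). For YSJZD against control it was 0.63 ± 0.21 (adjusted p = 0.0596), which passed without YSJZD replicate 2 (0.035) or cisplatin replicate 2 (0.048).

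The 2 glutathione peroxidases were not called in any comparison. Gpx1, the enzyme of the cytosol and mitochondria, stood at 1845, 1815 and 1498 CPM in YSJZD libraries, 1348, 1547 and 2678 CPM in cisplatin libraries, and 1795, 1567 and 1414 CPM in control libraries. The groups overlapped, and cisplatin replicate 3 held the highest value by far. Without that library the log2 fold change for cisplatin against control was -0.14 in place of 0.22 ± 0.25 (adjusted p = 0.469), and that for YSJZD against cisplatin was 0.24 in place of -0.11 ± 0.25 (adjusted p = 0.753). For YSJZD against control Gpx1 gave 0.11 ± 0.25 (adjusted p = 0.801), with a 95% interval of -0.44 to 0.66. In CPM the same library was also the highest of the cisplatin group in Cat, Sod1, Sod2, Gpx3, Selenop and Pon2. In share of all expected counts, without TMM factors, it stayed highest in Sod1, Sod2 and Selenop. Cisplatin replicate 1 was then highest in Cat (0.04656% against 0.04574%), Gpx3 (3.136% against 2.981%) and Pon2 (0.007495% against 0.007015%). Summed endothelial markers were lowest in cisplatin replicate 3, at 264 CPM against 505 and 585 CPM in replicates 1 and 2. So were podocyte (198 against 289 and 274) and smooth muscle markers (190 against 346 and 383), while hepatocyte markers were highest (43.6 against 9.66 and 5.94).

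Gpx3, the enzyme that the kidney secretes into plasma, stood at 37791, 33845 and 30860 CPM in YSJZD libraries, 28396, 24575 and 29937 CPM in cisplatin libraries, and 37244, 26076 and 19088 CPM in control libraries. The control libraries spanned the values of the cisplatin group. The log2 fold change was 0.01 ± 0.26 for cisplatin against control (adjusted p = 0.979), with a 95% interval of -0.56 to 0.58. It was 0.31 ± 0.26 for YSJZD against cisplatin (adjusted p = 0.381, interval -0.26 to 0.88), although each YSJZD library lay above each cisplatin library, and 0.31 ± 0.26 for YSJZD against control (adjusted p = 0.438, interval -0.25 to 0.88). In the 4 selenoproteins' summed FPKM, Gpx3 held 88.9% to 90.4% in YSJZD, 85.4% to 90.9% in cisplatin and 78.3% to 86.5% in control libraries, and Selenop held 2.61% to 3.64% in YSJZD, 1.7% to 2.21% in cisplatin and 6.94% to 12.6% in control libraries.

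Pon2, a lactonase of the endoplasmic reticulum and mitochondria that limits oxidative stress, stood at 38.8, 34.5 and 28.9 CPM in YSJZD libraries, 67.9, 58.3 and 70.4 CPM in cisplatin libraries, and 28.5, 26.3 and 26.2 CPM in control libraries. No groups overlapped. In log2 fold change, Pon2 gave 1.28 ± 0.14 for cisplatin against control (adjusted p = 4.38e-05) and -0.95 ± 0.14 for YSJZD against cisplatin (adjusted p = 0.000854). For YSJZD against control it was 0.34 ± 0.14 (adjusted p = 0.122). Of the other paraoxonases, Pon3 stood at 8.22 ± 2.34 CPM in YSJZD, 11.3 ± 1.55 CPM in cisplatin and 7.76 ± 1.03 CPM in control libraries and was not called in any comparison in the fit of all libraries. Pon1 was removed by the filter, with 0 counts in the cisplatin and control libraries.

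Markers of some cell types also changed between the groups, and those of others changed less or in another pattern. The 18 proximal tubule markers had 17 lower in cisplatin against control, 18 higher in YSJZD against cisplatin and 13 lower in YSJZD against control. Thick ascending limb markers (7 genes) summed to 2209 to 4509 CPM with YSJZD. The sums were 907 to 1957 CPM with cisplatin alone and 4489 to 8730 CPM in control. With cisplatin 6 of 7 fell, and 6 were higher in YSJZD against cisplatin. Distal tubule and collecting duct markers (10 genes) summed to 576 to 831 CPM with YSJZD. The sums were 275 to 617 CPM with cisplatin alone and 987.5 to 1063 CPM in control. With cisplatin 6 of 10 fell, and 4 were higher in YSJZD against cisplatin. The 12 macrophage markers summed to 416 to 765 CPM with YSJZD, 1196 to 2709 CPM with cisplatin alone and 118 to 172 CPM in control, with 10 of 12 higher in cisplatin against control, 9 of 12 lower in YSJZD against cisplatin and 3 of 12 higher in YSJZD against control. The 11 neutrophil markers summed to 4.15 to 10.04 CPM with YSJZD, 43.6 to 137 CPM with cisplatin alone and 1.66 to 2.11 CPM in control, with Camp at 0 counts in control. The 9 endothelial markers summed to 226 to 263.5 CPM with YSJZD, 264.1 to 585 CPM with cisplatin alone and 399 to 494 CPM in control. The 6 podocyte markers summed to 168 to 193 CPM with YSJZD, 198 to 289 CPM with cisplatin alone and 202 to 270 CPM in control. The part of all these markers in the results was not tested. In such bulk samples fewer cells of a type and less RNA per cell cannot be told apart.

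Other selenoproteins moved both ways. Of 17 other selenoprotein genes tested, 6 rose and 7 fell with cisplatin (median log2 fold change -0.18). Over all tested genes, to be set beside this and every other list, 28.6% were called higher and 26% lower with cisplatin. In YSJZD against cisplatin these shares were 17.4% and 18%, and in YSJZD against control 9.93% and 9.37%. The thioredoxin reductase of the cytosol, Txnrd1, rose (371 ± 93.8 CPM with cisplatin and 150.2 ± 13.5 CPM in control). That of mitochondria, Txnrd2, fell (-1.05 ± 0.15), as did Selenot (-1.12 ± 0.19), a protein of the endoplasmic reticulum. Dio3, which inactivates thyroid hormone, stood at 3.23 ± 1.53 CPM with cisplatin and 0.117 ± 0.0387 CPM in control. It passed the filter on low counts through the cisplatin libraries, so its place among the 6 that rose rests on that filter. In YSJZD against cisplatin 6 were higher, among them Txnrd2 (0.85 ± 0.15), and 4 lower, among them Selenon (-1.26 ± 0.25), and without YSJZD replicate 2 only 3 were higher. Gpx4, which reduces lipid peroxides, stood at 736 ± 67.9 CPM in YSJZD, 525 ± 5.25 CPM in cisplatin and 667 ± 106 CPM in control libraries. It was called in YSJZD against cisplatin (0.49 ± 0.15, adjusted p = 0.0278), a call lost without YSJZD replicate 1 (0.06) or 2 (0.0774) or cisplatin replicate 1 (0.0671) or 2 (0.0747).

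**Figure D4:**
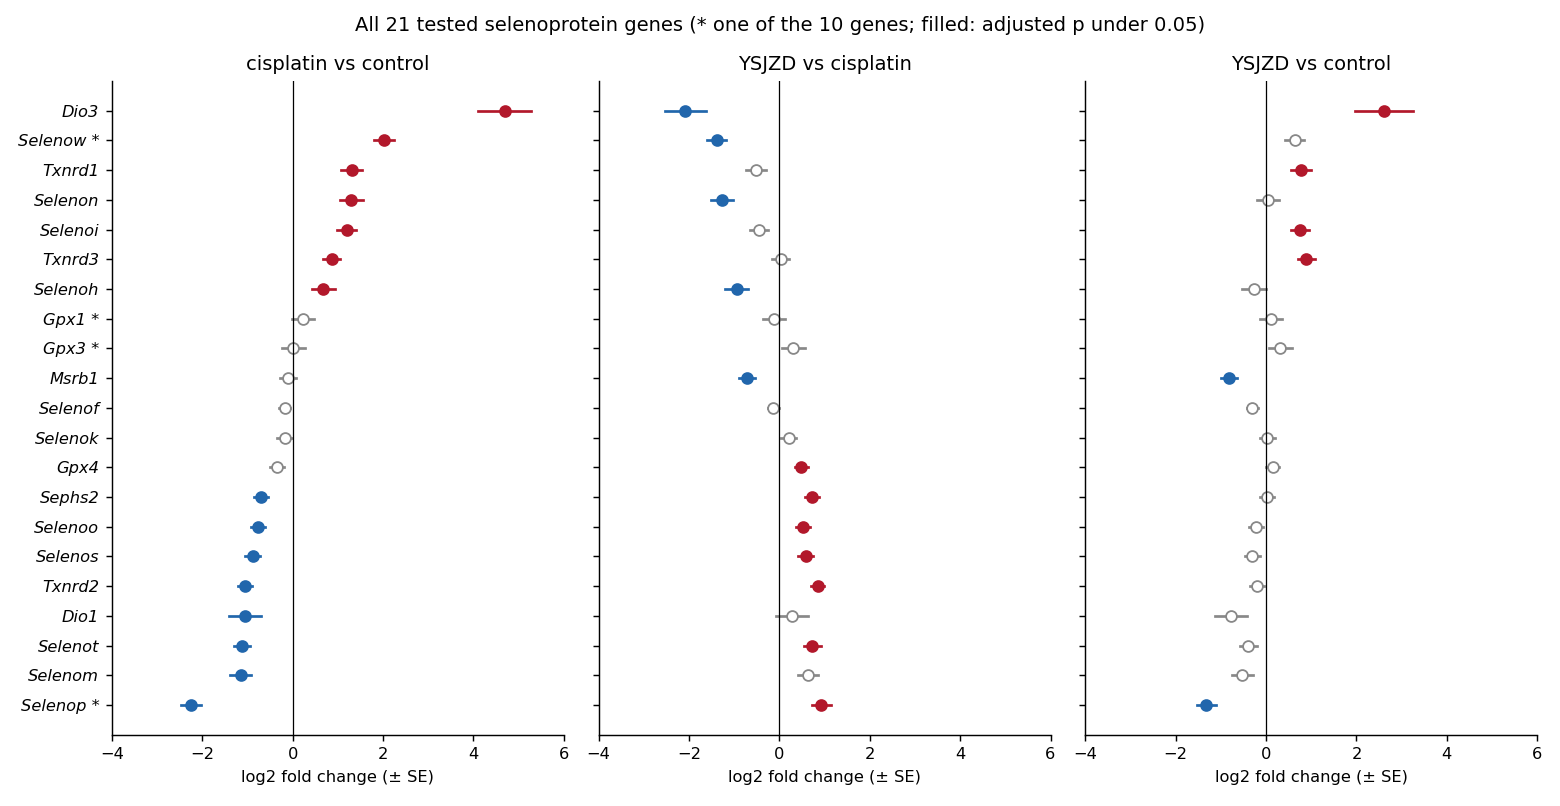
Log2 fold changes ± SE (horizontal axis) of all 21 tested selenoprotein genes in the 3 comparisons, ordered by cisplatin against control, with an asterisk at the 4 among the 10 genes described. Selenop stands lowest at -2.25 and Selenow second highest at 2.02 with cisplatin, and Dio3, at 0.117 CPM in control, stands highest.

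Of 10 tested genes tied to selenocysteine synthesis, insertion or breakdown, 8 fell and 0 rose with cisplatin (median -0.66). With library totals as the scale 5 fell and 1 rose. Scly, which frees selenium from selenocysteine, stood at 99.6 ± 9.77 CPM in YSJZD, 46.2 ± 0.492 CPM in cisplatin and 120.3 ± 9.03 CPM in control libraries (-1.38 ± 0.12 for cisplatin against control). It was higher in YSJZD against cisplatin (1.11 ± 0.12), where 3 of 10 were higher and 0 lower. Sephs2, itself a selenoprotein, makes the selenium donor and was counted in both lists (-0.70 ± 0.16 for cisplatin against control, 0.72 ± 0.16 for YSJZD against cisplatin). Further lists share genes too. Gpx4 was also counted among the other glutathione peroxidases, and Txnrd1, Txnrd2 and Txnrd3 among the thioredoxin genes. Lrp2 was counted among the proximal tubule markers and the receptors below. Of 3 receptor genes for selenoprotein P, 2 rose and 1 fell with cisplatin. The one that fell, Lrp2, which encodes megalin, stood at 1252 ± 361 CPM in YSJZD, 271 ± 89.4 CPM in cisplatin and 3262 ± 167 CPM in control libraries (-3.59 ± 0.29 for cisplatin against control, 2.21 ± 0.28 for YSJZD against cisplatin and -1.38 ± 0.27 for YSJZD against control). Lrp8, the receptor used in brain and testis, stood at 12.5 ± 1.47 CPM in cisplatin and 3.8 ± 1.5 CPM in control libraries, and rose (1.71 ± 0.28). Lrp1 stood at 50.1 ± 6.12 CPM in YSJZD, 168 ± 71.4 CPM in cisplatin and 34.7 ± 10.9 CPM in control libraries. It rose with cisplatin (2.28 ± 0.33) and was lower in YSJZD against cisplatin (-1.75 ± 0.32).

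The neighbours of Cat in the peroxisome fell with it. Of 8 peroxisomal oxidases that make hydrogen peroxide, 6 fell and 1 rose with cisplatin (median -1.81), and 6 were higher and 0 lower in YSJZD against cisplatin (median 1.17). Dao, a D-amino acid oxidase, changed by -2.04 ± 0.15 and 1.35 ± 0.15 in these comparisons, and Hao2, a hydroxyacid oxidase, by -4.06 ± 0.42 and 4.60 ± 0.44. The one that rose was Paox, a polyamine oxidase, named after its value was seen. Of 16 genes of peroxisome assembly, 10 fell and 1 rose with cisplatin (median -0.76), and 6 were higher and 0 lower in YSJZD against cisplatin (median 0.40). The gene that rose was Pex11a, named after its value was seen, and it was no longer called without cisplatin replicate 2 or 3 or control replicate 2 or 3.

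Sod2 and Prdx3 work in mitochondria, and 12 of 12 enzymes of the mitochondrial matrix fell with cisplatin (median -1.31), 10 of them with library totals as the scale. In YSJZD against cisplatin 10 of 12 were higher (median 0.72), among them Sdha (1.10 ± 0.15), while Sod2 was not called. In YSJZD against control 8 of 12 were lower (median -0.54), which became 5 without YSJZD replicate 1 or 3, 3 without control replicate 1, 4 without control replicate 2 and 3 with library totals. Of the thioredoxin and glutaredoxin genes, 5 of 10 rose and 2 fell with cisplatin, with Txn2, the thioredoxin of mitochondria that serves Prdx3, lower (-0.83 ± 0.14) and the thioredoxin inhibitor Txnip higher (3.14 ± 0.29).

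Of 6 other peroxiredoxin and sulfiredoxin genes, 1 rose and 2 fell with cisplatin, and 2 rose without cisplatin replicate 3. With library totals as the scale 2 rose and 1 fell. Srxn1, which repairs overoxidised peroxiredoxins, rose (3.04 ± 0.39), and Prdx5, which acts in mitochondria and peroxisomes, fell (-1.02 ± 0.16). Of 4 other glutathione peroxidases tested, 2 rose and 1 fell with cisplatin, and 1 rose without cisplatin replicate 1 or 2 or control replicate 2. The one that fell was Gpx6, at 7.89 ± 4.15 CPM in YSJZD, 5.35 ± 3.34 CPM in cisplatin and 41.3 ± 15.9 CPM in control libraries. Of the 4 genes of glutathione synthesis and reduction, 2 fell with cisplatin (1 without cisplatin replicate 2, control replicate 1 or control replicate 3, and with library totals), with Gss, glutathione synthetase, at -1.59 ± 0.14. Of 5 genes that deliver copper, which Sod1 and Sod3 need, 3 fell and 1 rose with cisplatin (2 rose without cisplatin replicate 1 or control replicate 3, and with library totals). Ccs, the copper chaperone of Sod1, fell (-1.11 ± 0.17) and was higher in YSJZD against cisplatin (0.68 ± 0.17), while the copper chaperone Atox1 rose with cisplatin (1.20 ± 0.14).

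By root mean square difference of centred log2 CPM over the 9 libraries, among 9649 genes averaging 10 CPM or more, the genes closest to Cat were Bckdha, Dhrs4 and Sfxn5, with differences of 0.09, 0.10 and 0.10. Those closest to Selenow were Il4ra, Bak1 and Trafd1, with differences of 0.15, 0.18 and 0.20.

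Promoter windows of RefSeq (GRCm38.p6, 250 bases before to 50 after the start) were found for 9 of the 10 genes. They were searched on both strands for TGACNNNGC, the core of the antioxidant response element, and for TGANTCA, the AP-1 site, patterns that can overlap. The first stood in windows of 2 of the 9 genes, against 14% of 27025 genes with a window, and the second in 0 of 9, against 8.97%. Both matches are shown with 10 bases on either side along the gene's strand, with the match in capitals, which lies on the opposite strand.
Sod1, chr16:90220696-90220724, plus strand: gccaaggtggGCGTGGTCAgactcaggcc
Pon2, chr6:5298309-5298337, minus strand: gtccggagctGCTCGGTCAggcccgagcc
Sod1 fell and Pon2 rose with cisplatin. Such a match is a description of the letters and not of a bound site.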

How the data were processed

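Per the labels, total RNA of cortical tissue was read on a DNBSEQ platform. Expected counts for 58075 RefSeq transcripts, with Entrez gene numbers, were deposited. RSEM 1.3.1 and DESeq2 1.4.5 are the tools in the submitters' processing notes. GRCh38, a human build, is the only build listed there. The aligner and the mouse build were not given in the sources. The other deposited columns were read as FPKM, since the transcript lengths they imply were 1.01 to 1.02 times the annotated length minus 200 bases.

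Expected counts were summed per gene and rounded. Counts of 9 of the 10 genes were whole in all libraries before rounding, and 8 had 1 transcript in the table. All 9 libraries were fitted in edgeR 4.0.16 (R 4.3.3) with filterByExpr, TMM factors (0.855 to 1.105) and a quasi-likelihood test with group as the only term. Calls needed an adjusted p (Benjamini-Hochberg over 13954 genes, two-sided) under 0.05. CPM use TMM-adjusted totals. Intervals use the SE of the fit with a t quantile of 2.22. The fit was tested on simulated counts. Alternatives were RLE factors, library totals, no filter, a filter of 5 CPM in 3 libraries, DESeq2 1.42.0, the 6 libraries of each comparison fitted alone, a replicate block, and each library left out.

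The genes and lists were chosen with earlier results of these data known. All 10 genes are named, up to 4 genes per list and comparison by smallest p, and Gpx4, Lrp2, Pon1, Pon3 and the 3 genes most like Cat and Selenow in any case. Markers of thick ascending limb, distal tubule, podocyte, smooth muscle and hepatocyte were also counted. With cisplatin against control, 6 of 7 thick ascending limb and 6 of 10 distal markers fell, and 2 of 6 podocyte markers rose. In YSJZD against control, 2 of 7 thick ascending limb markers were lower and 1 higher, and 4 of 10 distal markers were lower. Of 8 smooth muscle markers 3 rose and 2 fell, and of 9 endothelial markers 1 rose and 3 fell. Only 3 of the 7 hepatocyte markers passed the filter on low counts, and of these 2 rose and 1 fell. All 7 summed to 5.94 to 43.6 CPM in cisplatin and 3.79 to 9.39 CPM in control libraries.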

Additional observations from a re-analysis of the deposited data

How the results depend on the processing

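No called gene of the 10 changed direction under any alternative, and the calls in cisplatin against control and, but for Prdx3 as given above, in YSJZD against cisplatin were the same in all 16. The count of the 10 genes called in YSJZD against control was the one that depended on the processing. It was 5 lower and 0 higher, and became 2 lower and 2 higher with library totals and 2 lower with the replicate number as a block. With no filter 4 were lower. DESeq2 gave 5 lower and 1 higher, and the fit of only the 6 libraries compared gave 4 lower and 1 higher. With single libraries left out, 1 to 5 were lower and 0 to 1 higher, and the number of genes called in that comparison, 2694, lay between 1607 and 3138. The replicate numbers were not treated as pairs in the main fit. Deviations of same-numbered libraries correlated at -0.20 to 0.09, and 4 of 18 matches were best with the same number. With so few libraries a group, such a check cannot exclude that libraries were paired.

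Values that changed sign lay near 0 and were not called. Gpx3 in cisplatin against control was -0.004 with RLE factors and -0.004 in DESeq2, and -0.201 to 0.288 with single libraries left out (-0.008 without cisplatin replicate 1, -0.055 without cisplatin replicate 3, -0.031 without control replicate 2 and -0.201 without control replicate 3). Gpx1 with single libraries left out lay between -0.139 and 0.411 in cisplatin against control and between -0.298 and 0.243 in YSJZD against cisplatin, with the ends that changed sign both without cisplatin replicate 3. Sod3 in YSJZD against control was 0.074 with library totals. For lists, whose alternatives were chosen after seeing the data, Gsr in YSJZD against control was 0.140 with library totals, 0.157 without YSJZD replicate 3 and 0.168 without control replicate 1, Pon3 was -0.144 without YSJZD replicate 2 and -0.017 without control replicate 3 (up to 0.269), and Gclc in cisplatin against control was -0.030 without cisplatin replicate 3 (up to 0.404). With library totals or without YSJZD replicate 1, Pon3 was called higher in cisplatin against control.

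With 3 libraries a group, the SE of Gpx1 and Gpx3 were 0.25 and 0.26 on the log2 scale. Their 95% intervals are 2.22 times that to either side, so differences within these intervals are not excluded here. Calls rest on the adjusted p, which is stricter than such an interval. Selenow in YSJZD against control, for example, had an interval of 0.17 to 1.09 and was not called (adjusted p = 0.0596).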
